A study of Saccharomyces cerevisiae with 6 samples.

Results

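The genes described here serve phosphate supply in budding yeast: phosphatases that release phosphate, transporters that carry it, enzymes of polyphosphate and inositol pyrophosphate, and the PHO regulators. The 34 genes were listed by known function, with earlier results of these data known. Spots on the array represented 33 of them, and all 33 had values on all 3 arrays. They stood among 5379 genes with a spot, of which 4312 had values on all 3 arrays and were tested. KCS1 was matched to no spot in the annotation used here and has no value.

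Exponentially growing Saccharomyces cerevisiae of strain S288C in rich YPD medium at 25 °C received 12.6 µM zinc pyrithione, dissolved in dimethyl sulfoxide, for 2 h. Zinc pyrithione is a zinc complex used against fungi, for example in anti-dandruff shampoo. The other group was the same strain in the same medium, kept for 2 h with nothing added. Treated RNA (Cy5) and untreated RNA (Cy3) shared each of 3 arrays, which carried independent biological samples and gave 6 scans at 2 laser powers. All values below are log2 ratios of treated over untreated cells, so that 1 stands for 2-fold higher in treated cells and -1 for 2-fold lower. The deposited ratios do not state which dye is on top, and this direction is the likely one from the order of the channels. With the opposite direction all signs below would turn round. The dyes were never swapped between arrays and the untreated cells received no solvent, so dye and solvent cannot be told apart from the compound.

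In yeast with enough phosphate, the cyclin-dependent kinase Pho85 with its cyclin Pho80 phosphorylates the transcription factor Pho4 and keeps it out of the nucleus. When phosphate runs low, the inhibitor Pho81 stops the kinase, and Pho4 with its partner Pho2 turns on genes of secreted acid phosphatases, high-affinity transporters and polyphosphate synthesis. Polyphosphate is a chain of phosphates stored in the vacuole, and inositol pyrophosphates are small signalling molecules bound by SPX domains of transporters, regulators and the polyphosphate polymerase.

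Of the 33 phosphate genes, 10 were higher in treated cells (30.3%) and 4 were lower (12.1%) at an adjusted p under 0.05 in limma, adjusted over all 4312 genes. Over all genes tested, 8.12% were called higher and 9.6% lower, so the share of lower calls was close to the background. With replicate 1, 2 or 3 left out, 6, 4 and 6 phosphate genes were called higher and 1, 1 and 2 lower. Over all genes tested, 311 of 4321, 320 of 4494 and 597 of 4857 were then called in either direction. These pooled counts give no background share for higher or lower calls alone. The median of the phosphate genes was 0.31, against 0.03 over all genes tested. On the single arrays their medians were 0.31, 0.41 and 0.26, against 0.01, 0.04 and 0.03. A total of 17 phosphate genes were above 0 on all 3 arrays, where 28.9% of all genes were, and 6 were below 0 on all 3, where 26% of all genes were. The remaining 10 had mixed signs.

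**Figure D1:**
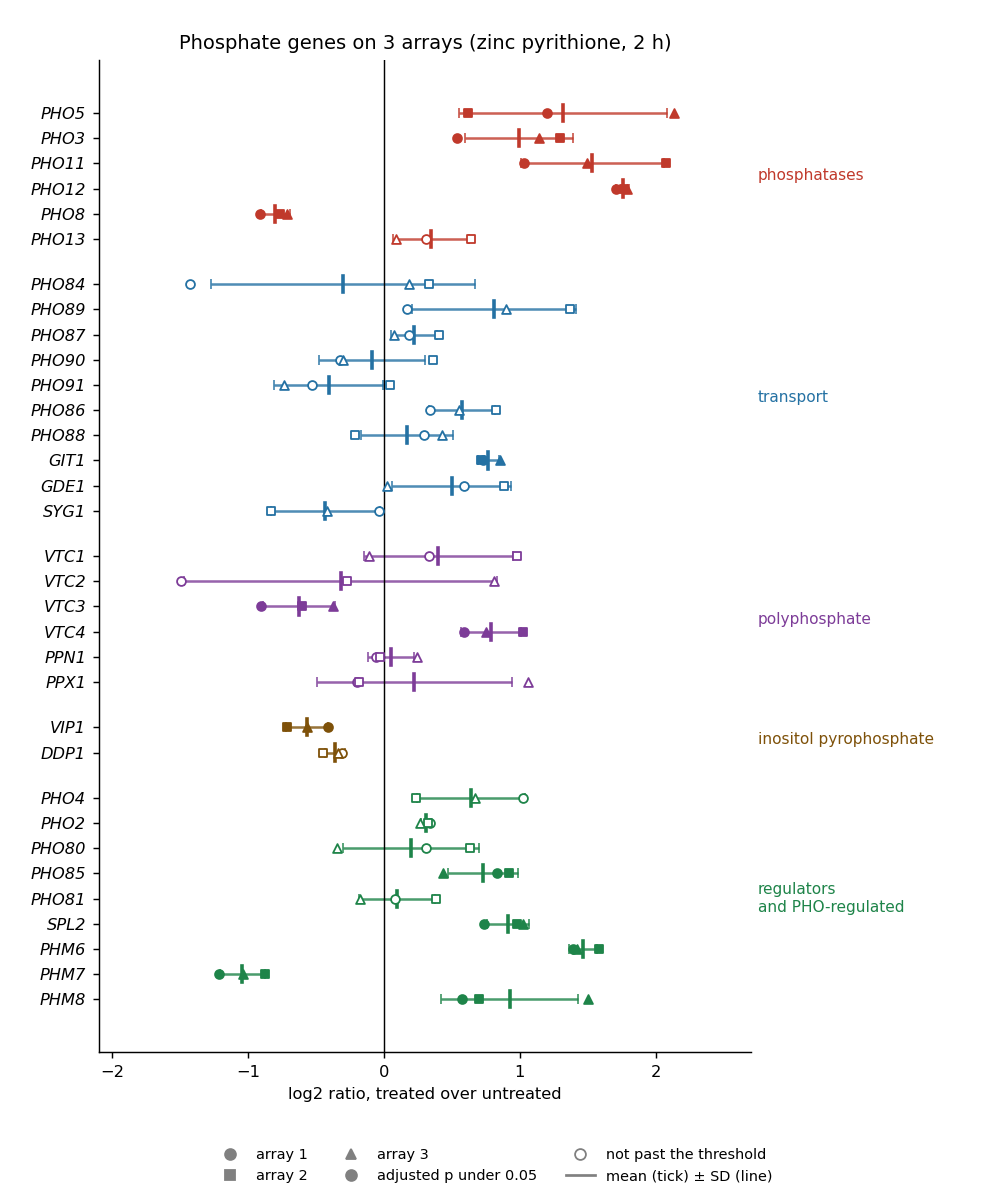
Log2 ratio (treated over untreated, x axis) of the 33 measured phosphate genes by role. Each symbol is 1 array, the tick is the mean and the line the SD (n = 3), and filled symbols mark an adjusted p under 0.05. PHO5, PHO3, PHO11 and PHO12 lie to the right of 0 on every array, whereas PHO8, VTC3, VIP1 and PHM7 lie to the left of 0 on every array.

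The phosphatase genes had the highest median of the 5 role groups, at 1.15. All 4 genes of secreted acid phosphatases were higher in treated cells, with a median of 1.42, where 8.12% of all genes were called higher. These enzymes sit outside the plasma membrane and cleave phosphate from organic esters in the medium. Calls of the 4 genes may not all be separate measurements, as PHO11 and PHO12 are near-identical. PHO8, which encodes the alkaline phosphatase of the vacuole, went the other way and was lower.

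PHO12 (YHR215W), which encodes a phosphate-repressible acid phosphatase, had log2 ratios of 1.71, 1.77 and 1.79. These 3 values were nearly equal, and the mean of 1.76 ± 0.045 (SD, n = 3) made PHO12 the highest of the phosphate genes, 3.38-fold higher in treated cells (limma adjusted p = 0.00045). PHO11 (YAR071W), whose product is almost the same protein, had 1.03, 2.08 and 1.5. The arrays disagreed more on PHO11 than on PHO12, with a mean of 1.53 ± 0.52 (SD, n = 3), or 2.89-fold higher (limma adjusted p = 0.0042). Their difference, PHO12 minus PHO11, was 0.68, -0.31 and 0.29 on the single arrays, so that both genes could not be ordered. Near-identical genes can bind each other's spots, and the 2 ratios may not be separate measurements.

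PHO5 (YBR093C), the gene of the main repressible acid phosphatase, had log2 ratios of 1.20, 0.62 and 2.13. All 3 lay above 0 but spread widely, with a mean of 1.32 ± 0.77 (SD, n = 3), or 2.49-fold higher (limma adjusted p = 0.018). The value of array 2 was the mean of 1.44 in the high-power scan and -0.21 in the low-power scan, and the high-power scan of array 1 had no value. Without replicate 1 the call of PHO5 was lost (limma adjusted p = 0.068), and it was lost in the low-power scans alone (mean 1.10, adjusted p = 0.15). PHO3 (YBR092C), the neighbour of PHO5 on chromosome II, encodes an acid phosphatase controlled by thiamine rather than by phosphate. It had 0.54, 1.30 and 1.14, with a mean of 0.99 ± 0.40 (SD, n = 3), 1.99-fold higher (limma adjusted p = 0.014). Without replicate 2 or 3 PHO3 was no longer called (limma adjusted p = 0.081 and 0.060). PHO5 minus PHO3 was 0.66, -0.68 and 0.99 on the single arrays, smaller on average than its spread (0.32 ± 0.89, SD, n = 3). Whether the spots of PHO3 and PHO5 bind each other's RNA was not tested.

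PHO8 (YDR481C), a zinc-dependent enzyme that matures in the vacuole, had log2 ratios of -0.92, -0.76 and -0.72. All 3 arrays lay close together below 0, with a mean of -0.80 ± 0.10 (SD, n = 3), or 1.74-fold lower in treated cells (limma adjusted p = 0.013). The call did not hold without replicate 1 or replicate 2 (limma adjusted p = 0.095 and 0.064). On every array PHO11 exceeded PHO8, by 1.94, 2.84 and 2.21, a difference that was described and not tested. PHO13 (YDL236W), a soluble intracellular phosphatase gene, had 0.31, 0.64 and 0.09 and was not called (0.35 ± 0.28, SD, n = 3; limma adjusted p = 0.20).

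Among the transport genes, 1 of 10 was higher and 0 were lower in limma (4 higher and 0 lower at an unadjusted p under 0.05), against 8.12% higher and 9.6% lower over all genes. With 10 genes these counts, near the background, say nothing about the group. The median of the transport genes was 0.20, and the single genes lay between -0.43 and 0.81. The gene past the threshold was GIT1 (YCR098C), a permease for glycerophosphoinositol, a phospholipid breakdown product from which phosphate can be gained. GIT1 had values in high-power scans only, of 0.73, 0.72 and 0.85. These were among the closest triplets of the list, with a mean of 0.77 ± 0.076 (SD, n = 3), 1.70-fold higher (limma adjusted p = 0.015). The adjusted p was 0.082, 0.067 and 0.055 without replicate 1, 2 and 3, so GIT1 was called in none of these.

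Of the 2 high-affinity phosphate importers of the plasma membrane, PHO89 had the higher ratio on every array. PHO89 (YBR296C), which takes up phosphate with sodium, had log2 ratios of 0.17, 1.37 and 0.89. It was above 0 throughout and just missed the threshold (0.81 ± 0.60, SD, n = 3; limma adjusted p = 0.054). PHO89 passed without replicate 1 (1.13; adjusted p = 0.035) and in the high-power scans alone (adjusted p = 0.042). Without replicate 2 or 3 it was not called (limma adjusted p = 0.24 and 0.14). PHO84 (YML123C), which takes up phosphate with protons and is a main target of Pho4, had -1.43, 0.33 and 0.19. Array 1 stood apart from the other 2, and its value came from the high-power scan alone. The mean of PHO84 was -0.30 ± 0.97 (SD, n = 3; 95% interval -1.08 to 0.47; limma adjusted p = 0.55), and without replicate 1 it was 0.26 (adjusted p = 0.51). PHO89 minus PHO84 was 1.59, 1.04 and 0.71 on the single arrays, a difference that was described and not tested.

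PHO86 (YJL117W), an endoplasmic reticulum protein gene needed for Pho84 to leave that compartment, had 0.34, 0.83 and 0.55. All were above 0, and the mean of 0.57 ± 0.24 (SD, n = 3) fell just short of the threshold (limma adjusted p = 0.053). In the high-power scans alone PHO86 was called (0.51; adjusted p = 0.043), and likewise when the genes tested were those with both scans on all arrays (adjusted p = 0.036). It was not called without replicate 1, 2 or 3 (limma adjusted p = 0.12, 0.24 and 0.12). PHO88 (YBR106W, now SND3), which helps insert proteins into the endoplasmic reticulum, had mixed signs of 0.30, -0.21 and 0.43.

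The low-affinity importers PHO87 (YCR037C) and PHO90 (YJL198W) had means of 0.22 ± 0.17 and -0.09 ± 0.39 (SD, n = 3 each; limma adjusted p = 0.36 and 0.77). Their 95% intervals, -0.15 to 0.59 for PHO87 and -0.54 to 0.36 for PHO90, leave out a 2-fold change in either direction. PHO91 (YNR013C), which returns phosphate from the vacuole to the cytosol, stood at -0.53, 0.04 and -0.74 and was not called (limma adjusted p = 0.18). On every array PHO90 exceeded PHO91, by 0.20, 0.32 and 0.43. This pair was chosen after its values were seen, and the difference was not tested. SYG1 (YIL047C), a relative of a human phosphate exporter, was below 0 on all arrays at -0.04, -0.83 and -0.42 (limma adjusted p = 0.16). GDE1 (YPL110C), which cleaves glycerophosphocholine, was above 0 on all arrays at 0.58, 0.89 and 0.02 (limma adjusted p = 0.12). Neither GDE1 nor SYG1 passed the threshold.

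**Figure D2:**
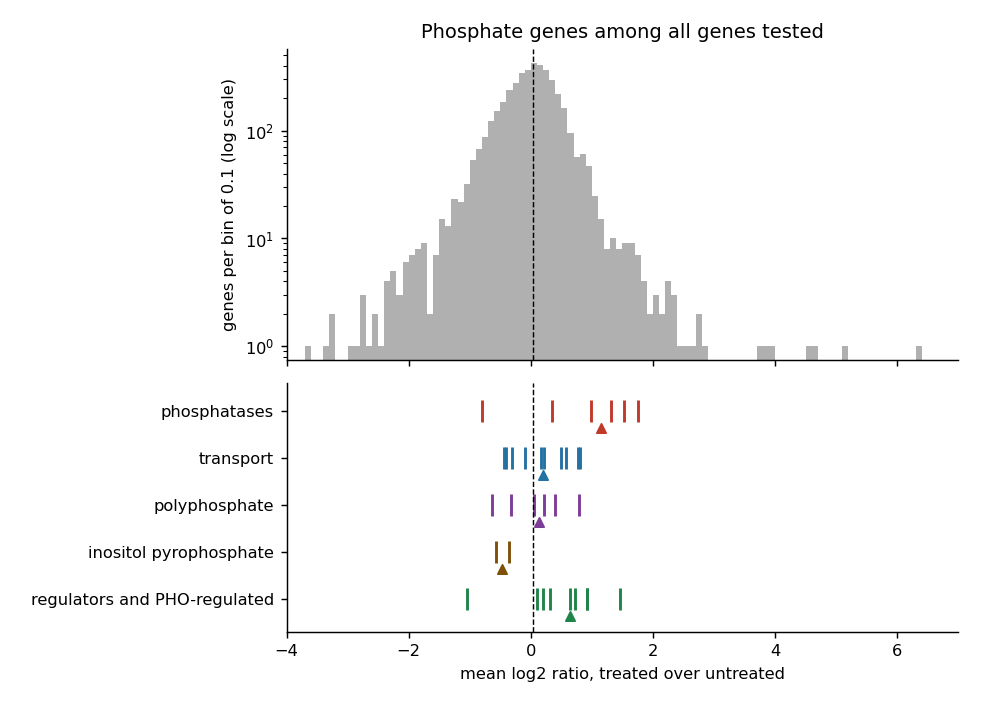
Upper panel: the mean log2 ratios (treated over untreated) of all 4312 genes tested, in bins of 0.1 with a log axis of counts. Lower panel: each phosphate gene as a bar by role with a triangle at the group's median, and the dashed line at the median of all genes (0.03). The phosphatase median of 1.15 lies farthest to the right, and the pair of inositol pyrophosphate genes lies to the left of the line.

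Of the 6 polyphosphate genes, 1 was higher and 1 was lower, against 8.12% and 9.6% over all genes. With so few genes these counts say nothing about the group, whose median was 0.14, and 4 of the 6 had mixed signs across the arrays. VTC4 (YJL012C), the catalytic subunit of the vacuolar polyphosphate polymerase, had log2 ratios of 0.59, 1.02 and 0.75. It was higher on every array, with a mean of 0.79 ± 0.22 (SD, n = 3), 1.72-fold higher (limma adjusted p = 0.018). VTC3 (YPL019C), an accessory subunit with an SPX domain, had -0.91, -0.60 and -0.38. It was lower on every array, with a mean of -0.63 ± 0.27 (SD, n = 3), 1.55-fold lower (limma adjusted p = 0.044). VTC4 exceeded VTC3 on each array, by 1.49, 1.63 and 1.13, a difference of 1.42 ± 0.26 (SD, n = 3) that was described and not tested.

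Both calls lay near the limit of 3 arrays. Leaving out replicate 1, 2 or 3 gave VTC4 an adjusted p of 0.064, 0.10 and 0.055 in limma, and VTC3 one of 0.24, 0.14 and 0.057. VTC3 also lost its call when genes with values in at least 2 replicates were tested (limma adjusted p = 0.052).

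VTC2 (YFL004W), the subunit that takes the place of Vtc3 in other copies of the complex, had -1.5, -0.27 and 0.81. This was the widest spread among the phosphate genes, with a mean of -0.32 ± 1.15 (SD, n = 3; limma adjusted p = 0.59), and the mean was 0.27 without replicate 1. VTC1 (YER072W), the small membrane subunit, had 0.33, 0.98 and -0.11 (limma adjusted p = 0.25). Neither VTC1 nor VTC2 can therefore be placed with VTC4 or with VTC3. The polyphosphate-degrading enzymes had no call: PPN1 (YDR452W), the endopolyphosphatase of the vacuole, stood at 0.05 ± 0.17 (SD, n = 3; 95% interval -0.32 to 0.42). PPX1 (YHR201C), the cytosolic exopolyphosphatase, had -0.20, -0.19 and 1.06, so that array 3 alone was high (limma adjusted p = 0.59).

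Both measured genes of inositol pyrophosphate metabolism were below 0 on all arrays, where 26% of all genes were. Of the 2, 1 was called lower, against 9.6% over all genes. With 2 genes these counts say nothing about the group. VIP1 (YLR410W), a kinase gene for one of the pyrophosphate positions, had log2 ratios of -0.41, -0.72 and -0.57. Its mean was -0.57 ± 0.15 (SD, n = 3), 1.48-fold lower in treated cells (limma adjusted p = 0.047), the call closest to the threshold. It did not hold without replicate 1, 2 or 3 (limma adjusted p = 0.14, 0.20 and 0.11), nor with genes of at least 2 replicates (0.057). DDP1 (YOR163W), a phosphatase that breaks inositol pyrophosphates down, had -0.31, -0.45 and -0.34. These values lay close together but nearer to 0 (mean -0.36 ± 0.073, SD, n = 3) and were not past the threshold (limma adjusted p = 0.13).

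Among the regulators and further PHO-regulated genes, 4 of 9 were higher (44.4%) and 1 was lower (11.1%), with a median of 0.64. Over all genes 8.12% were higher and 9.6% lower, so the lower call is at the background. Within the signalling core, PHO85 (YPL031C) was the gene past the threshold. It had log2 ratios of 0.83, 0.92 and 0.43, with a mean of 0.73 ± 0.26 (SD, n = 3), 1.66-fold higher (limma adjusted p = 0.026). PHO85 was not called without replicate 1 or 2 (limma adjusted p = 0.14 and 0.13) or in the low-power scans alone (0.064). PHO80 (YOL001W), its cyclin for the phosphate response, had 0.31, 0.63 and -0.34, all from high-power scans. PHO85 exceeded PHO80 by 0.53, 0.28 and 0.78 on the single arrays, but the ratio of PHO80 itself changed sign between arrays (0.20 ± 0.50, SD, n = 3; limma adjusted p = 0.55). PHO81 (YGR233C), the inhibitor of the kinase and itself a target of Pho4, stood at 0.08, 0.38 and -0.18 (limma adjusted p = 0.72), with a 95% interval of its mean from -0.31 to 0.50.

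PHO4 (YFR034C), the transcription factor, had 1.02, 0.23 and 0.67. It was above 0 on every array and just short of the threshold (0.64 ± 0.40, SD, n = 3; limma adjusted p = 0.057), which it passed in the high-power scans alone (adjusted p = 0.034). Without replicate 1, 2 or 3 PHO4 was not called (limma adjusted p = 0.29, 0.065 and 0.14). PHO2 (YDL106C), the homeodomain partner of Pho4, had 0.34, 0.33 and 0.26. The arrays differed little on PHO2 (SD 0.038), yet the ratio of 0.31 was too small for a call (limma adjusted p = 0.19).

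PHM6 (YDR281C), a phosphate-regulated gene of unknown function, was the third highest of the list, with log2 ratios of 1.39, 1.58 and 1.42. The mean was 1.47 ± 0.10 (SD, n = 3), 2.76-fold higher in treated cells (limma adjusted p = 0.00098). SPL2 (YHR136C), a small protein gene whose product restrains low-affinity phosphate uptake, had 0.74, 0.98 and 1.02. It was 1.88-fold higher (0.91 ± 0.15, SD, n = 3; limma adjusted p = 0.0087), and without replicate 2 the adjusted p was 0.055. SPL2 exceeded PHO87, a transporter it acts on, by 0.56, 0.57 and 0.95 on the single arrays, which was not tested.

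PHM8 (YER037W), which encodes a phosphatase of lysophosphatidic acid and nucleotides, had 0.57, 0.70 and 1.5. Array 3 was far above the others, and the mean of 0.93 ± 0.50 (SD, n = 3) was 1.90-fold higher (limma adjusted p = 0.026). With replicate 1, 2 or 3 left out, PHM8 stood at 1.10, 1.04 and 0.64 and was not called (limma adjusted p = 0.055, 0.069 and 0.076). PHM7 (YOL084W), a membrane protein gene named in the same screen for phosphate-regulated genes, was the lowest of the list. It had -1.21, -0.88 and -1.04, with a mean of -1.04 ± 0.17 (SD, n = 3), 2.06-fold lower in treated cells (limma adjusted p = 0.0055). PHM6 minus PHM7 was 2.6, 2.46 and 2.45 on the single arrays, a difference that was described and not tested.

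Calls of 4 phosphate genes, PHO11, PHO12, PHM6 and PHM7, held when replicate 1, 2 or 3 was left out in turn. That is 28.6% of the 14 calls, against 31.7% of the 764 calls over all genes, so calls of phosphate genes held about as often as calls in general.

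**Figure D3:**
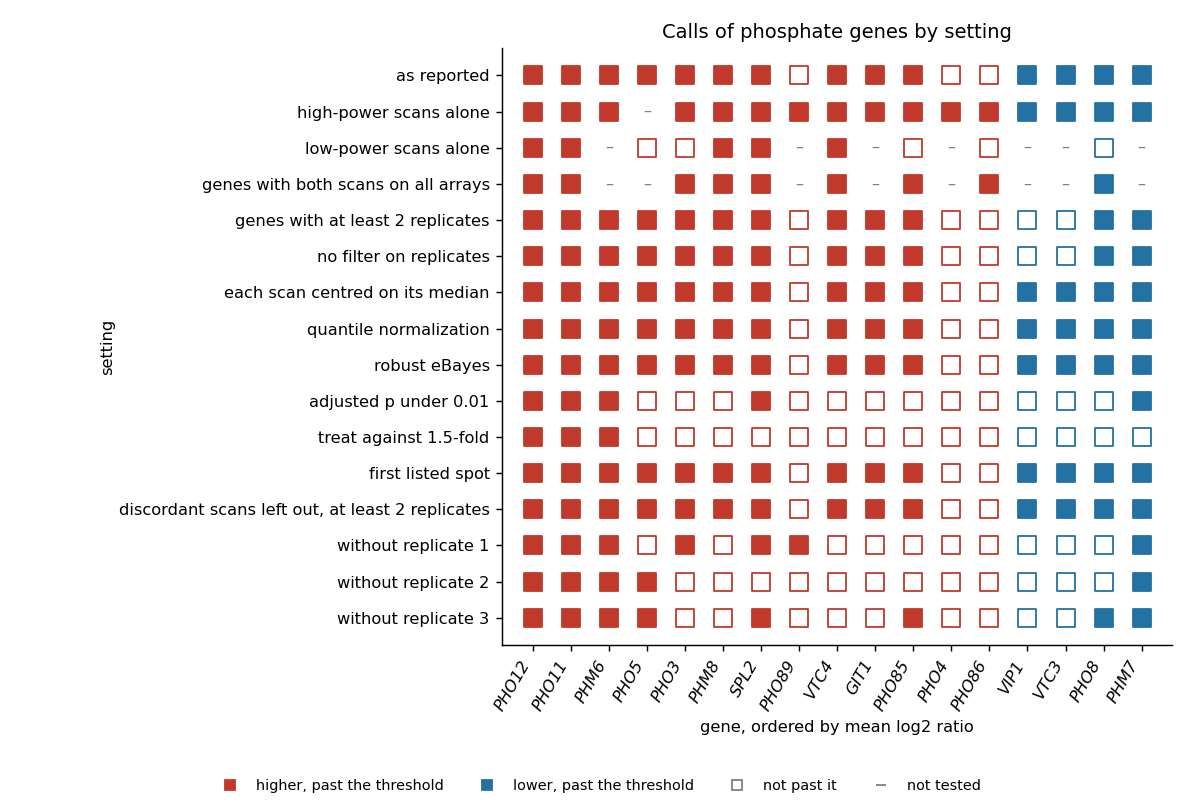
Calls of the 14 phosphate genes past the threshold and of PHO89, PHO4 and PHO86 (columns, by mean log2 ratio) under each setting (rows). Red stands for higher and blue for lower in treated cells, filled for past the threshold, open for not past it, and a dash for not tested. PHO12 and PHO11 are filled in every row, and PHM6 and PHM7 are filled in each row that leaves out a replicate.

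The laser power of the scan made no difference that could be called. High minus low ratios were tested for 1372 genes with both scans on all arrays, 16 of them phosphate genes, and limma called 0 of these genes (0%), with 46 at an unadjusted p under 0.05. Over 68 pairs of scans of phosphate genes, the median absolute gap was 0.22, against 0.21 over all 7197 pairs of genes with a spot. A gap above 1 occurred in 1 pair (1.47%), that of PHO5 on array 2 at 1.64. Over all pairs of genes with a spot, 2.43% had such a gap.

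**Figure D4:**
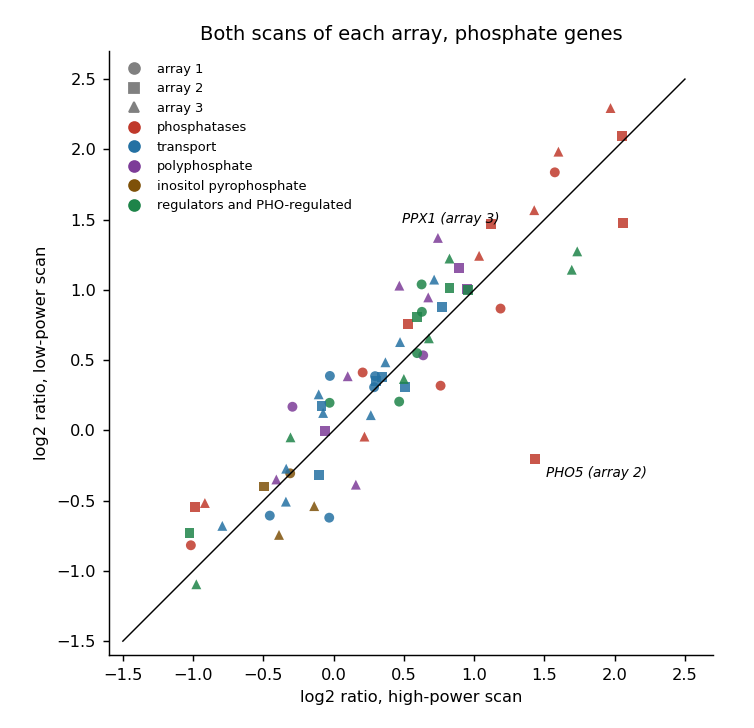
Log2 ratios (treated over untreated) of phosphate genes in the high-power scan (x axis) and the low-power scan (y axis) of the same array, by array (symbol) and role (colour), with the line of equality. Most points lie near the line, with a median absolute gap of 0.22, and PHO5 on array 2 lies farthest from it (1.44 in the high-power scan and -0.21 in the low-power scan).

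Beyond the 34 genes, a second list held 22 other genes of the pathway, among them further polyphosphatases, inositol polyphosphate enzymes, cyclins of Pho85 and mitochondrial phosphate carriers. Of these, 16 were tested, 0 were higher and 1 was lower in limma (2 higher and 3 lower at an unadjusted p under 0.05), with a median of 0.01. The share called lower, 6.25%, was near the 9.6% over all genes. The gene that was lower was MIR1 (YJR077C), the main carrier of phosphate into mitochondria for ATP synthesis. It had log2 ratios of -1.66, -1.78 and -1.67. With a mean of -1.70 ± 0.064 (SD, n = 3) it was 3.25-fold lower in treated cells (limma adjusted p = 0.00053), farther below 0 than any of the 33 phosphate genes. PIC2 (YER053C), the other phosphate carrier of mitochondria, stood at 0.22, 0.15 and 0.23 and was not called (limma adjusted p = 0.38). PPN2 (YNL217W), a second vacuolar endopolyphosphatase, had 0.41, 0.30 and 1.18 (limma adjusted p = 0.076), the highest of the tested genes of this second list.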

How the data were processed

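The deposited values are log2 ratios of both dyes, with 1 column per scan. Per the labels, the authors used spots with no quality flag for LOWESS normalization, which sets the average ratio near 0 and hides any change common to most genes. They were read as log2 because of their range. Spot intensities were not used here, so signal over background is unknown. Of 6912 spots, 5446 had 1 gene in the platform annotation and all were matched to RefSeq R64, used for names and gene order.

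Scans of an array were averaged (or the one present taken), and spots of a gene averaged. For PHO89, GDE1, SYG1, VTC2, VTC3, PPX1, VIP1, PHO4 and PHM6, arrays 1 and 2 had only the high-power scan and array 3 both. The mean of 3 arrays was tested against 0 with limma 3.58.1 (lmFit, eBayes; R 4.3.3) across 4312 genes with Benjamini-Hochberg adjustment and a threshold of 0.05. The procedure was run on simulated complete arrays with independent normal noise. That simulation did not model missing scans, averaging of scans or dye effects, so it says nothing about those. The number of arrays limits the precision. There were 0 unused sample columns. Phosphate genes, role groups and the second list were chosen with earlier results of these data known, and all 34 genes are named by rule. Pairs of genes set side by side, and PPN2 and PIC2 of the second list, were chosen after their values were seen. A constant order of such a pair over 3 arrays is therefore a description and no test. Promoter motifs were not analysed here. Figures were drawn with matplotlib 3.10.9.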

Additional observations from a re-analysis of the deposited data

How the results depend on the processing

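The 10 higher and 4 lower phosphate genes stayed at these numbers with scans centred on their medians, quantile normalization, robust eBayes and the first listed spot. They also did with 2 choices changed together after seeing the data, scans that differed by over 1 left out and genes tested with at least 2 replicates. The high-power scans alone, with 32 of the genes tested and PHO5 left out, gave 12 and 4. Calls rose over all genes too, to 1085 of 4252 from 764 of 4312. Counts over all genes in this section pool higher and lower calls. The low-power scans, with 17 of the genes tested, gave 5 higher and 0 lower in limma (9 and 1 at an unadjusted p under 0.05). Over all genes the low-power scans called 151 of 1429. Genes with both scans on all arrays, 16 of the list, gave 8 and 1, with 357 of 1372 called over all genes. Genes with values in at least 2 replicates gave 10 and 2 (744 of 5048 over all genes), and no filter came to the same test. An adjusted p under 0.01 left 4 and 1, and limma's treat against 1.5-fold 3 and 0 (6 and 1 at an unadjusted p under 0.05). Over all 4312 genes these settings left 295 and 142 calls. Leaving out each replicate gave 4 to 6 higher and 1 to 2 lower, with fewer arrays and 311 to 597 calls over all genes. The scan difference stayed at 0 calls in limma in each of these (29 to 56 genes at an unadjusted p under 0.05).

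Signs turned for genes not past the threshold, and the cause was not tested. PPN1 stood at -0.085 in the high-power scans and at -0.00085 with centred scans. When each replicate was left out, the ranges were -0.62 to 0.26 for PHO84, -0.32 to 0.028 for PHO90, -0.88 to 0.27 for VTC2, -0.019 to 0.47 for PHO80, -0.047 to 0.23 for PHO81, -0.048 to 0.10 for PPN1 and -0.19 to 0.43 for PPX1. Each ratio already pairs a treated with an untreated culture, so the test of the mean ratio against 0 was a paired one. The series holds 1 group of ratios, and no further pairing was possible.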
